A study of Mus musculus with 8 samples.

Results

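The integrin and laminin genes were taken as the rows of the deposited table whose whole symbol has the form of a subunit or chain name. This form is Itga or Itgb followed by a number, with or without further letters, or by 1 of the letters d, e, l, m, v and x, or Lama, Lamb or Lamc followed by 1 digit. Genes such as Itgb1bp1, which has a further digit, were not taken. The rule found 39 of 34478 genes: 27 integrin subunit genes, 11 laminin chain genes, and Itgb3bp, which has a matching symbol but encodes a kinetochore protein and no integrin subunit. The study treated 4 primary cell lines from murine pancreatic ductal adenocarcinoma, numbered #1, #3, #5 and #10, with trametinib, an inhibitor of the kinase MEK, for 48 h at the IC50 of each line, or with DMSO. All lines, in both groups, came from tumors of mice whose alleles include Ptf1awt/Cre and Trp53loxP/loxP. In these mice, Cre expressed from the Ptf1a locus in the pancreas removes the floxed Trp53. Each line gave 1 library per treatment, so that 4 DMSO libraries were compared with 4 trametinib libraries and the replicate was the line, each kept in culture without the stroma of the tumor.

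Integrins are heterodimers of an α and a β subunit that span the cell membrane and tie the actin or keratin cytoskeleton to the matrix outside the cell. Laminins are trimers of an α, a β and a γ chain and form the sheet of the basement membrane to which epithelial cells attach through integrins. In pancreatic carcinoma, as in other epithelia, tumor cells make much of the laminin they attach to, and which chains and receptors are expressed decides which matrix a cell can bind.

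The values were normalized counts per gene, a signal already scaled between libraries, and the libraries summed to between 30680091 and 36385719, which the spacing of low values put at about 29300000 to 45900000 reads. At this depth, 3 reads correspond to 2.33 to 3.72 normalized counts, a limit that covers counting error only. The targets of MEK signaling Dusp6, Spry4 and Etv4 fell in 4 of 4 lines in the libraries labelled as treated, with log2 fold changes of -2.51, -3.61 and -5.92. Of 8 ductal and epithelial markers, Cdh1 and the keratins Krt7, Krt8, Krt18 and Krt19 were each at 9735 normalized counts or more in every library. The markers summed to 221230 to 348818 in DMSO and to 113156 to 222090 in trametinib, with 5 of 7 tested markers lower and Cldn4 higher. The part of this shift in the results below was not tested. Epcam was listed at 0 in 6 of 8 libraries and reached 10.4 in line #3. In bulk RNA, fewer cells of a type and less RNA per cell cannot be told apart.

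Trametinib raised more integrin and laminin genes than it lowered. Of the 39 genes, 30 had a mean of at least 10 normalized counts and were tested with limma, as log2(normalized count + 1) with the line as a block and adjustment over all 15888 genes tested. In these, 15 genes were higher with trametinib at an adjusted p under 0.05, 7 were lower and 8 did not pass. Among all genes tested, 27.3% were higher and 25.6% lower, beside 15 of 30 members and 23.3% of members. Their median log2 fold change was 0.46, against 0.07 over all genes tested. Itgb8 and Lama4 passed the filter only through their trametinib libraries, and among the 28 members with a mean of at least 10 in both groups, 13 were higher and 7 lower. In 11 of the 30 tested members the DMSO and trametinib libraries did not overlap, which held for 31.3% of all genes tested. A change in the same direction in 4 of 4 lines was found for 23 of the 30, including all 22 that passed the test, and for 65.6% of all genes tested. Values below are given for lines #1, #3, #5 and #10 in this order, and fold changes are log2 differences of normalized count + 1, a scale on which changes at low counts come out too small.

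**Figure D1:**
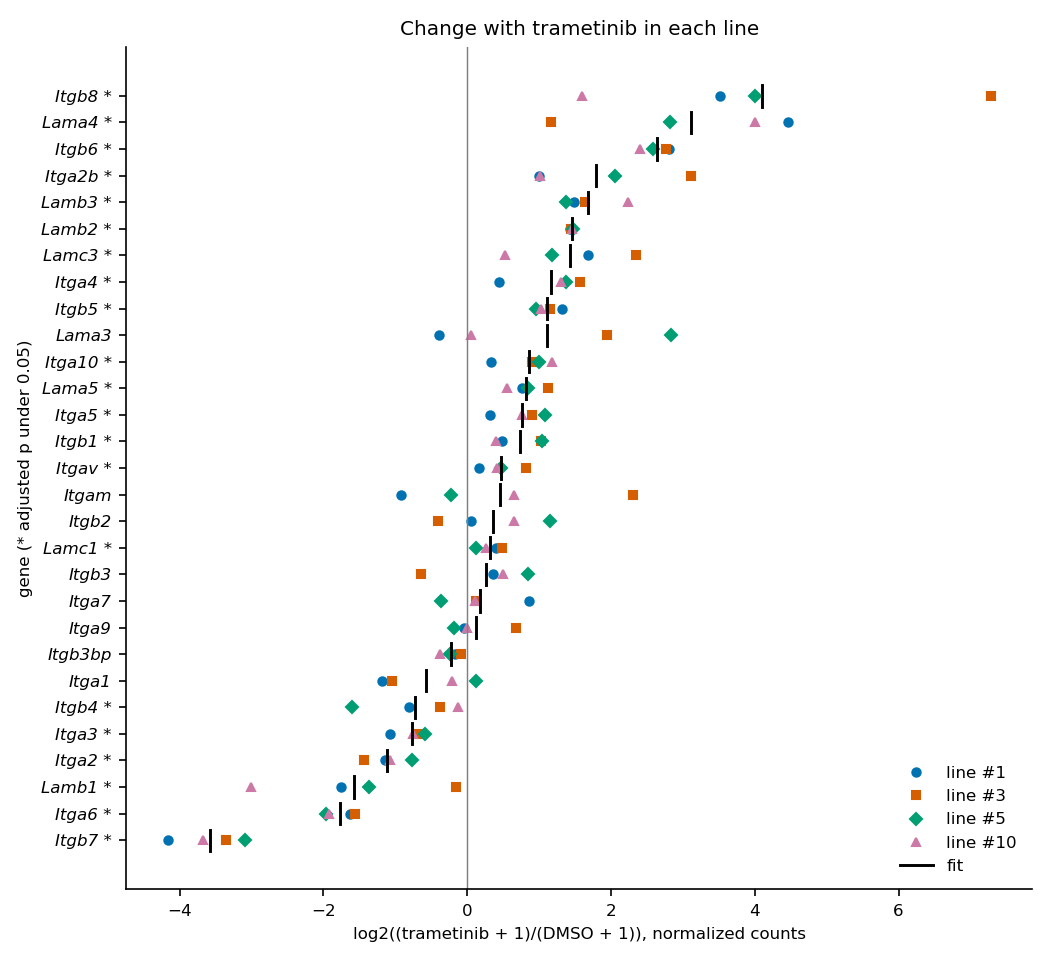
Change of 29 of the 30 tested members with trametinib, one row per gene, on the x axis as log2((trametinib + 1)/(DMSO + 1)) of normalized counts. Symbols are the 4 lines, black bars the fitted mean, and an asterisk marks an adjusted p under 0.05, which 15 genes above and 6 genes below 0 reached among those shown.

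Laminin chains rose in 6 and fell in 2 of the 9 that could be tested, 66.7% and 22.2% beside 27.3% and 25.6% of all genes tested. Their median log2 fold change was 1.11. The 6 and the median include Lama4, which passed the filter only through its trametinib libraries, so its rise gives no support to this count. The laminin α message of these cells came almost wholly from 1 gene, while the β chains came from several genes that moved in opposite directions. Lama5, the α chain of the laminins found in most adult epithelial basement membranes, was at 44345, 42513, 37539 and 50502 normalized counts in DMSO and at 75002, 92659, 67316 and 74405 in trametinib. Every trametinib library lay above every DMSO library (log2 fold change 0.82 ± 0.13, SE, n = 4 lines, adjusted p = 0.0022). Counted per kb of the longest coding transcript, Lama5 made up 99.9% of all laminin α message in DMSO and 99.8% in trametinib.

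The other α chains were at 102 normalized counts or lower in every library. Lama4, a chain known from vessels, muscle and other mesenchymal tissue, was at 1.72, 2.82, 10.6 and 0.866 normalized counts in DMSO and at 58.9, 7.59, 80.4 and 29.0 in trametinib. It was higher in 4 of 4 lines (log2 fold change 3.11 ± 0.59, adjusted p = 0.0048), but 3 DMSO libraries were at 3 reads or fewer, and the fitted value was 2.23 with a pseudocount of 5 and 3.76 without line #3. Of 8 fibroblast markers 4 were tested and none was called, with Lum at 0 in every library and sums of 65.8 to 239 in DMSO and 63.6 to 153 in trametinib. The 5 endothelial markers summed to 30.9 to 55.4 in DMSO and to 62.7 to 831 in trametinib, without overlap. Of these, 3 were tested and 1, the receptor Tek, was called. Tek was at 1.303 to 21.5 in DMSO and 13.5 to 805 in trametinib and passed the filter only through its trametinib libraries, while Kdr was higher in 4 of 4 lines without passing and Pecam1 was at 6.503 to 15.6. Cdh5 reached 17.5 and Emcn 1.02. The part of other cells in the rise of Lama4 was not tested. Lama3, the α chain of the laminin that anchors epidermis-like epithelia through hemidesmosomes, split by line. It was at 53.2, 25.9, 13.2 and 36.8 in DMSO and at 40.1, 102, 101 and 38.2 in trametinib, higher in lines #3 and #5 but not clearly so in line #10 and lower in line #1 (log2 fold change 1.11 ± 0.56, adjusted p = 0.14). It was 0.53 without line #5 (adjusted p = 0.44) and 1.61 without line #1 (adjusted p = 0.068). Lama2 was at 0 to 30.0 in DMSO and 3.55 to 8.21 in trametinib and was below the filter. Lama1 was listed at 0 in all 8 libraries.

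The 3 β chains exchanged places. Lamb1, the most widely expressed β chain, was at 9134, 8266, 9912 and 10769 normalized counts in DMSO and at 2711, 7402, 3857 and 1340 in trametinib. The groups did not overlap, but the fall differed between lines, from 1.12-fold in line #3 to 8.04-fold in line #10 (log2 fold change -1.57 ± 0.40, adjusted p = 0.015). Without line #1 the adjusted p was 0.059. Lamb2, the β chain of synaptic, kidney and vascular basement membranes, was at 4362, 3342, 4095 and 2809 in DMSO and at 11746, 9098, 11351 and 7725 in trametinib. Its rise was nearly the same in every line, 2.69-fold to 2.77-fold (log2 fold change 1.45 ± 0.07, adjusted p = 9.7e-05). The 4 line values had an SD of 0.02 on the log2 scale. Lamb3, the β chain that pairs with Lama3, was at 1155, 2130, 1672 and 1494 in DMSO and at 3238, 6631, 4327 and 7015 in trametinib. It too rose without overlap (log2 fold change 1.68 ± 0.15, adjusted p = 4e-04).

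Per kb, Lamb1 held 62.6% ± 5.0 (SD, n = 4 lines) of laminin β message in DMSO and 17.7% ± 9.4 in trametinib. Lamb2 went from 24.7% ± 4.7 to 51.1% ± 11.9 and Lamb3 from 12.7% ± 3.6 to 31.2% ± 11.7. The ratio of Lamb2 to Lamb1 per kb was 0.491, 0.415, 0.424 and 0.268 in DMSO and 4.45, 1.26, 3.02 and 5.92 in trametinib. Lamb1 thus led in every DMSO library and in no trametinib library. In line #10, Lamb3 stood at 47.3% and was the leading β chain, and in the other 3 lines Lamb2 led. The β chain total rose from 2626 ± 136 to 3524 ± 536 normalized counts per kb.

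**Figure D2:**
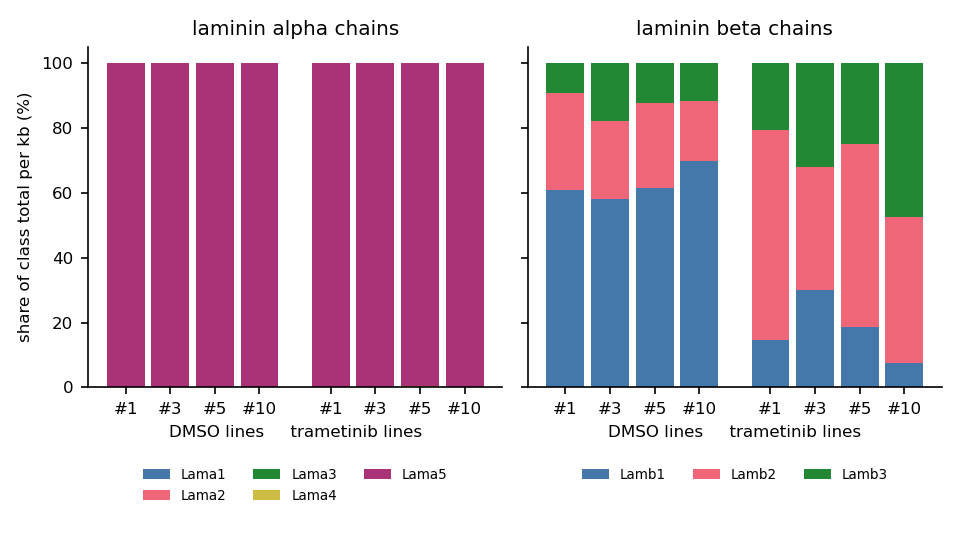
Share of each gene in the summed normalized counts per kb of the laminin α and β chains, in %, for the 4 DMSO and the 4 trametinib libraries by line. Lama5 fills the α chains throughout, and Lamb1 shrinks from 58.1% to 69.8% in DMSO to 7.61% to 30.1% in trametinib.

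The sequences just before the starts of Lamb1 and Lamb2 are shown because these genes encode the same kind of chain and moved in opposite directions. Both are RefSeq promoter windows on GRCm38.p6, cut where the first annotated transcript begins and written 5′ to 3′ in the direction of the gene, with each CpG in capitals. The Lamb1 stretch is chr12:31265043-31265233 on the plus strand and the Lamb2 stretch is chr9:108479612-108479735 on the plus strand.
Lamb1: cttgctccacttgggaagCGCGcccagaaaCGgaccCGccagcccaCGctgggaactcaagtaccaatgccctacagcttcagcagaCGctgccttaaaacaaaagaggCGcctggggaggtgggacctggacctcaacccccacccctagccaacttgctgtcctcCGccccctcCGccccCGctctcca
Lamb2: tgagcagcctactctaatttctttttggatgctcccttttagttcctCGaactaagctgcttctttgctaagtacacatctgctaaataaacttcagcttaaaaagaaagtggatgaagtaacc
In the full 250 bases before the RefSeq start, Lamb1 has 14 CpGs and Lamb2 has 3, against a median of 6 over 32851 RefSeq promoters. Motifs of AP-1 (TGANTCA), ETS factors (CCGGAAGT) and TEAD (GGAATG), searched on both strands, had no match in either window. Of the 39 members, 25 had a RefSeq promoter. The AP-1 letters were found in Itgax, and the TEAD letters in Itga10 and Itgb1. None of these 25 held the ETS letters, and members without a RefSeq promoter were not searched. The windows of Itga9, Itgb3bp and Lamb3 lay 105002, 100655 and 94295 bases from the annotated start of the gene. Over all promoters the shares were 6.75% for AP-1, 12.6% for TEAD and 2.88% for ETS. A match in these letters describes the sequence only.

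Among the γ chains, Lamc1, the γ chain of most laminins, was at 11030, 15937, 14326 and 14162 normalized counts in DMSO and at 14566, 22379, 15602 and 16945 in trametinib. The groups overlapped and the rise was small in each line (log2 fold change 0.32 ± 0.10, adjusted p = 0.029). The adjusted p was 0.11 without line #1 and 0.09 without line #10. Lamc1 lies on the minus strand of chromosome 1 at chr1:153218922-153332786. Lamc3, a minor γ chain, went from 13.6, 3.31, 16.9 and 37.3 to 45.7, 20.9, 39.6 and 54.2 (log2 fold change 1.43 ± 0.37, adjusted p = 0.016, and 0.064 without line #1). Of the chains Lama3 and Lamb3, which are known to occur in 1 trimer, Lamb3 rose and Lama3 did not pass the test. Per kb, Lamb3 was 47.1 to 275 times as abundant as Lama3 in DMSO.

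**Figure D3:**
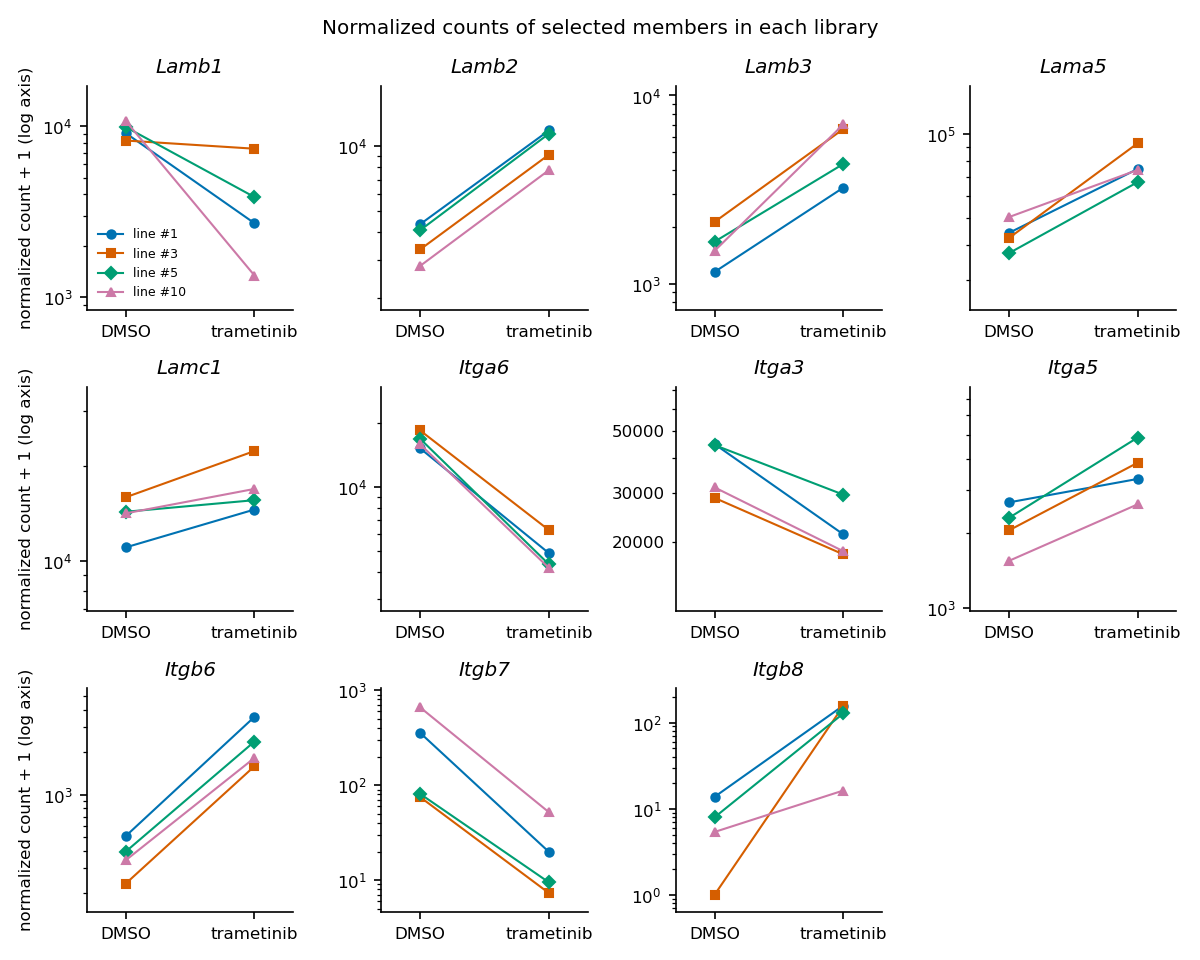
Normalized count + 1 of 11 selected members in the DMSO and the trametinib library of each line, on log axes, with lines joining the libraries of 1 cell line. Lamb2 and Itgb6 run parallel in the 4 lines, Lamb1 fans out from 7402 to 1340 with trametinib, and Itgb7 keeps its order of lines while falling.

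Of 3 laminin-binding integrin α subunits, 2 fell and 1 did not pass the test, beside 25.6% lower of all genes tested. Itga6, which pairs with Itgb1 or with Itgb4 and binds laminin, was at 15225, 18475, 16887 and 15903 normalized counts in DMSO and at 4901, 6291, 4344 and 4177 in trametinib. The groups were far apart and the fall was 2.94-fold to 3.89-fold in each line (log2 fold change -1.77 ± 0.10, adjusted p = 0.00014). Itga3, the other epithelial laminin receptor, was at 44786, 28752, 44417 and 31350 in DMSO and at 21295, 18057, 29529 and 18527 in trametinib. It fell in each line, by 2.10-fold at most, although line #5 with trametinib lay above line #3 without it (log2 fold change -0.77 ± 0.11, adjusted p = 0.0017). Itga7, the laminin receptor of muscle, was at 648, 119, 713 and 627 in DMSO and at 1181, 129, 555 and 679 in trametinib. It went up in line #1 and down in line #5 (log2 fold change 0.18 ± 0.20, adjusted p = 0.46).

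Of 4 collagen-binding α subunits, Itga2 fell, Itga10 rose, Itga1 did not pass the test and Itga11 was too low to test. Itga2, the main collagen receptor of epithelia, was at 11902, 6881, 13793 and 6351 normalized counts in DMSO and at 5373, 2532, 8101 and 3009 in trametinib. The lines differed about as much as the treatments, and each line fell by 1.70-fold to 2.72-fold (log2 fold change -1.11 ± 0.12, adjusted p = 0.00068). Its neighbor Itga1, 21.0 kb away on the minus strand of chromosome 13, was at 4491, 1373, 4582 and 1606 in DMSO and at 1982, 667, 5008 and 1389 in trametinib. Its log2 fold change was -1.18 and -1.04 in lines #1 and #3, but 0.13 and -0.21 in lines #5 and #10 (fit -0.58 ± 0.23, adjusted p = 0.069). With 1 line left out, the log2 fold change ranged from -0.81 (adjusted p = 0.029, without line #5) to -0.37 (adjusted p = 0.24, without line #1). Itga10, known from cartilage, was at 120, 58.8, 60.05 and 99.9 in DMSO and at 152, 111, 121 and 227 in trametinib. It was higher in each line (log2 fold change 0.85 ± 0.21, adjusted p = 0.013, and 0.055 and 0.068 without line #5 and line #10). Itga11, the collagen receptor of fibroblasts, was at 1.52, 1.02, 0 and 3.77 in DMSO and at 31.8, 6.43, 18.8 and 16.6 in trametinib. With a mean of 9.99 it fell just short of the filter and has no test, although its groups did not overlap. Itga1 and Itga10 share exon bases on their own strand with the gene models Gm49395 and Gm42957, so that reads there may have been divided.

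The α subunits that bind the RGD motif of fibronectin, vitronectin and latent TGF-β rose in 3 of the 3 that could be tested, beside 27.3% higher of all genes tested. Itga5, the fibronectin receptor, was at 2666, 2054, 2308 and 1547 normalized counts in DMSO and at 3316, 3855, 4872 and 2618 in trametinib. It rose 1.24-fold in line #1 and up to 2.11-fold in line #5 (log2 fold change 0.76 ± 0.13, adjusted p = 0.0034). Itgav, the shared partner of Itgb3, Itgb5, Itgb6 and Itgb8, was at 7295, 5671, 7090 and 6674 in DMSO and at 8170, 10025, 9803 and 8894 in trametinib. The groups did not overlap, but the change was modest (log2 fold change 0.47 ± 0.12, adjusted p = 0.015, and 0.057 and 0.051 without line #5 and line #10). Itga2b, the α subunit of the platelet fibrinogen receptor, was at 35.9, 33.7, 31.4 and 55.5 in DMSO and at 72.5, 298, 134 and 113 in trametinib. All 4 trametinib libraries lay above all DMSO libraries (log2 fold change 1.79 ± 0.39, adjusted p = 0.0081). The platelet markers Pf4 and Gp1bb did not exceed 4.73 in any library. Ppbp was at 5.16 to 51.1 in DMSO and at 2.83 to 98.0 in trametinib and was not called. Itga8 reached 11.7 in line #3 without the drug and was listed at 0 in every trametinib library, which leaves it below the filter.

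Itga4, which binds fibronectin and Vcam1, was at 49.7, 103, 103 and 59.6 normalized counts in DMSO and at 67.6, 307, 267 and 150 in trametinib (log2 fold change 1.17 ± 0.24, adjusted p = 0.0061). It rose in each line, least in line #1. Its relative Itga9 was at 6.47 to 15.2 in DMSO and at 9.21 to 14.8 in trametinib (log2 fold change 0.12 ± 0.34, adjusted p = 0.80).

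Of 8 tested β subunits, 4 rose and 2 fell, beside 27.3% higher and 25.6% lower of all genes tested. The 4 include Itgb8, which passed the filter only through its trametinib libraries, so its rise gives no support to this count. Itgb1, the partner of most α subunits, was at 26770, 20395, 21005 and 20217 normalized counts in DMSO and at 37591, 41357, 43139 and 26593 in trametinib. Only line #10 with trametinib reached into the DMSO range, and the rise was 1.31-fold to 2.05-fold (log2 fold change 0.74 ± 0.14, adjusted p = 0.0054). Its laminin-binding partners Itga3 and Itga6 fell in the same libraries, whereas Itga5 and Itgav rose.

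Among β subunits well above the filter in both groups, the largest rise was that of Itgb6, an epithelial partner of Itgav that activates latent TGF-β. Itgb6 was at 508, 233, 394 and 342 in DMSO and at 3557, 1590, 2377 and 1820 in trametinib. The lowest trametinib library lay above the highest DMSO library, and each line rose 5.32-fold to 7.01-fold (log2 fold change 2.64 ± 0.11, adjusted p = 8.1e-05). Itgb8, the other partner of Itgav that activates latent TGF-β, was at 12.7, 0, 6.93 and 4.36 in DMSO and at 156, 155, 126 and 15.2 in trametinib. Line #3, listed at 0 without the drug, was at least 49.7-fold higher with it against the limit of 3 reads per library, and line #10 was 3.49-fold higher. The fit gave a log2 fold change of 4.10 ± 0.84 (adjusted p = 0.0064), which was 3.04 without line #3 and 4.94 without line #10. Itgb5, a vitronectin receptor subunit, was at 2949, 1922, 2448 and 2274 in DMSO and at 7357, 4287, 4749 and 4614 in trametinib. It rose 1.94-fold to 2.49-fold, without overlap (log2 fold change 1.11 ± 0.09, adjusted p = 0.00034). Itgb3, the remaining partner of Itgav, was at 1686, 3267, 1846 and 1376 in DMSO and at 2153, 2087, 3327 and 1945 in trametinib. It fell in line #3 alone, where it had been highest (log2 fold change 0.26 ± 0.23, adjusted p = 0.36). The value rested on single lines, with 0.57 without line #3 (adjusted p = 0.0073) and 0.068 without line #5 (adjusted p = 0.83).

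Itgb4, which forms hemidesmosomes with Itga6, was at 2077, 2391, 2471 and 1770 in DMSO and at 1189, 1838, 810 and 1624 in trametinib. It fell in each line, by 1.09-fold in line #10 and by 3.05-fold in line #5 (log2 fold change -0.73 ± 0.23, adjusted p = 0.035). The adjusted p was 0.11 without line #1. Without line #5 the log2 fold change was -0.44 and the adjusted p 0.074. Rescaling the libraries to equal totals gave 0.062 and quantile normalization 0.056. Itgb7, which pairs with Itga4 and Itgae on lymphocytes, had the largest fall of all members. It was at 355, 74.0, 80.0 and 659 in DMSO and at 18.8, 6.30, 8.47 and 50.9 in trametinib. The lines kept their order, with #10 and #1 above #5 and #3 under both treatments, and each fell 9.45-fold to 18.9-fold (log2 fold change -3.57 ± 0.26, adjusted p = 0.00025).

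The stretches before the starts of Itgb6 and Itgb7, the β subunits with this rise and with the largest fall, are printed with each CpG in capitals. They lie on GRCm38.p6 at chr2:60722644-60722853 and chr15:102231945-102232185, both on the minus strand and both from RefSeq.
Itgb6: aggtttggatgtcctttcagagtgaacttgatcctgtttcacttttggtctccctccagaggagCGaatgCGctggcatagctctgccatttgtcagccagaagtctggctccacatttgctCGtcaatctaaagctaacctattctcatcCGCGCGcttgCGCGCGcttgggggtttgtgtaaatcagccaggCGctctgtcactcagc
Itgb7: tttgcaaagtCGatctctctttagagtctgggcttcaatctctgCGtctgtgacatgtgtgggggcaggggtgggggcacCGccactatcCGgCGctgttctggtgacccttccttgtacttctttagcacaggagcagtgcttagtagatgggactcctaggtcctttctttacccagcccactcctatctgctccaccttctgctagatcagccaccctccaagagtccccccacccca
The full 250 bases hold 11 CpGs for Itgb6, which include 2 runs of alternating C and G, and 5 for Itgb7. Neither window matched the AP-1, ETS or TEAD letters.

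Integrins that are typical of leukocytes were low in these cultures apart from Itgb7. Itgb2, the shared β subunit of leukocyte integrins, was at 11.6 to 12.8 normalized counts in DMSO and at 9.41 to 27.8 in trametinib (log2 fold change 0.36 ± 0.38, adjusted p = 0.45). Itgam was at 25.8, 4.74, 10.1 and 3.83 in DMSO and at 13.2, 27.5, 8.48 and 6.56 in trametinib (log2 fold change 0.45 ± 0.57, adjusted p = 0.53). Below the filter, Itgal was at 0.701 to 19.1 in DMSO and 1.26 to 9.24 in trametinib. Itgax reached 23.8 in line #1 with trametinib and no more than 3.79 elsewhere. Itgae went from 3.10, 8.32, 4.99 and 7.67 to 5.87, 11.2, 7.99 and 15.4, higher in each line but with overlap. Itgad stayed at 3.69 or lower, and Itgb2l was listed at 0 outside line #3, where it was at 1.04 and 0.937. Reads of Itgam and Itgad may have been divided, since they share exon bases on their own strand with the gene models Gm49368 and Gm17831. Of 8 leukocyte markers, 7 were in the table used, and they summed to 148 to 231 in DMSO and 229 to 512 in trametinib. The pan-leukocyte gene Ptprc was at 4.05 to 17.2, and Cd3e and Lyz2 did not exceed 1.91. Cd68 made up most of the DMSO sums, at 135 to 188 in DMSO and 130 to 228 in trametinib, and was not called. Csf1r, a receptor of macrophages, rose by 2.83 on the log2 scale. The part of other cells in these low values was not tested.

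**Figure D4:**
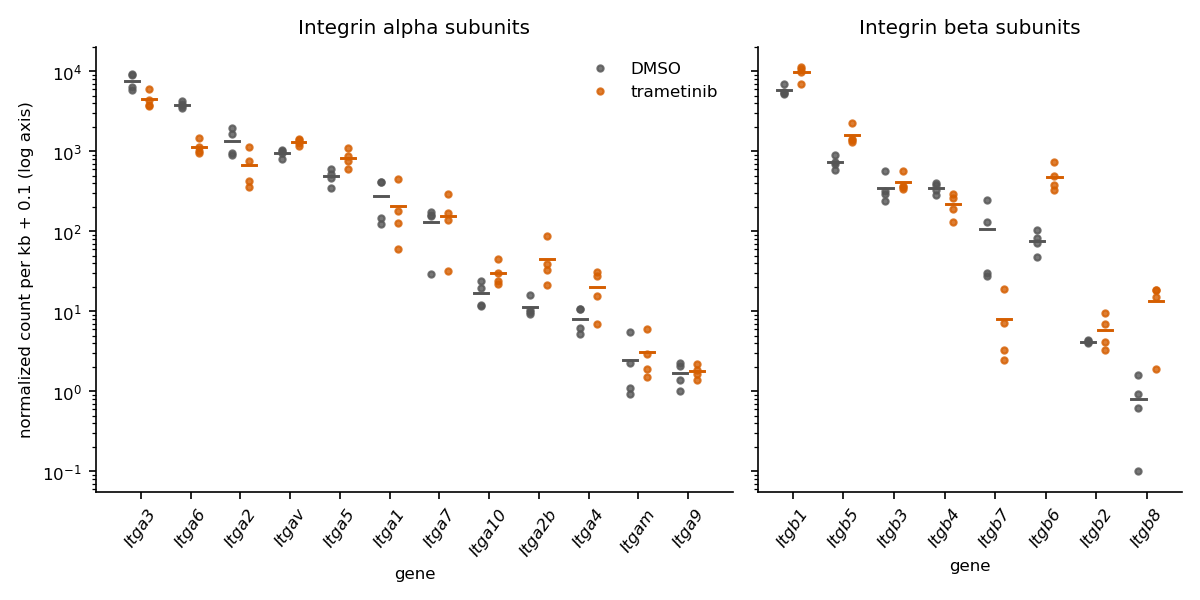
Normalized count per kb + 0.1 of the tested integrin α and β subunits on a log axis, with 4 DMSO libraries (grey) and 4 trametinib libraries (orange) as points and their mean as a bar. Itga3 and Itgb1 lead under both treatments, and Itga6, Itgb7 and Itgb4 drop while Itgb6 and Itgb8 climb.

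Per kb of the longest coding transcript, the order of the leading α subunits in DMSO was Itga3 at 7679 ± 1742 (SD, n = 4 lines), Itga6 at 3857 ± 327, Itga2 at 1369 ± 519, Itgav at 947 ± 102 and Itga5 at 489 ± 107. Itga2 and Itgav lay within the spread of Itga2. With trametinib the order was Itga3 at 4495 ± 1093, Itgav at 1307 ± 121, Itga6 at 1143 ± 223, Itga5 at 836 ± 217 and Itga2 at 669 ± 359, where Itgav and Itga6, and Itga5 and Itga2, differed by less than their spread. The α total fell from 14792 ± 2469 to 8925 ± 1743 normalized counts per kb, while the β total rose from 7418 ± 917 to 12488 ± 2100. In DMSO the α message summed to more than the β message in every line, and with trametinib to less in every line. Itga6 dropped from 26.8% ± 5.9 to 13.2% ± 3.8 of α message, Itgav grew from 6.47% ± 0.69 to 15.0% ± 2.7 and Itga5 from 3.30% ± 0.45 to 9.32% ± 1.27. Itga3 kept about its share, 51.5% ± 3.6 and 50.1% ± 3.0. Among β subunits, Itgb1 was at 78.0% ± 1.3 and 77.7% ± 4.6. Itgb6 went from 1.02% ± 0.23 to 3.90% ± 1.25 and Itgb4 from 4.78% ± 0.93 to 1.85% ± 0.83. These shares rest on 1 transcript length per gene and on the scaling between genes, not on a test.

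The tested members differed in how far the drug and the line set their level. The sum of squares of log2(normalized count + 1) over the 8 libraries was divided into parts for treatment, line and the rest. Treatment took over 50% in 18 members, line in 8 and the rest in 1. This split was not made for all genes tested, so these counts have no background share and show nothing particular to the members. Treatment took most in Itga6 at 96.1%, Itgb6 at 90.7% and Lamb2 at 89.5%. Line took most in Itga7 at 95.5% in Itgb3bp at 84.4% and in Itga1 at 83.4%. The rest, which holds the differences between lines in their response, took most in Lama3 at 55.9%, followed by Itgam at 46.3% and Itgb3 at 45.2%. Itgb3bp, the member that is no integrin, was at 107, 120, 168 and 186 in DMSO and at 94.6, 112, 142 and 143 in trametinib (log2 fold change -0.22 ± 0.16, adjusted p = 0.29).

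**Figure D5:**
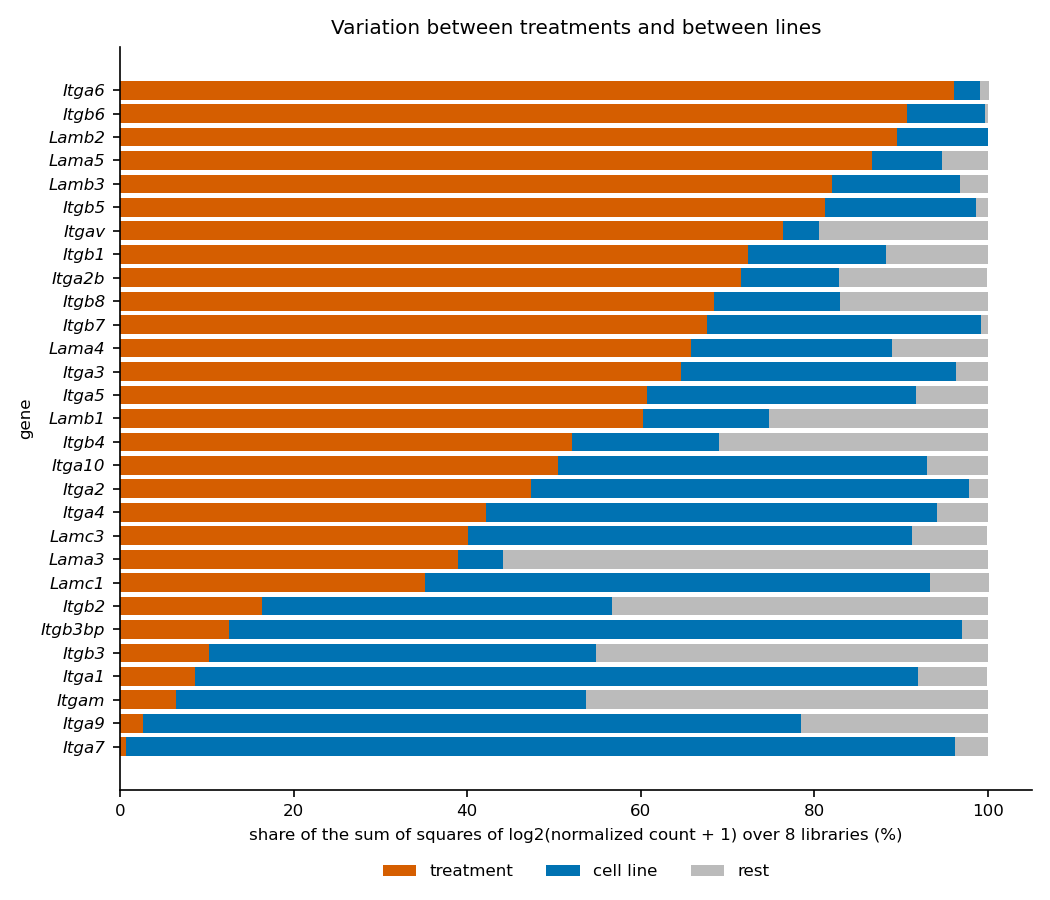
Share of the sum of squares of log2(normalized count + 1) over 8 libraries that falls to treatment, cell line and the rest, in %, for 29 of the 30 tested members in order of the treatment share. The treatment share runs from 0.7% in Itga7 to 96.1% in Itga6.

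The partners of laminins and integrins were examined as whole lists, to be read beside the 27.3% higher and 25.6% lower of all genes tested and their median log2 fold change of 0.07. Of 20 basement membrane genes other than laminins, 18 were tested, 13 rose and 3 fell, with a median log2 fold change of 1.31. The 2 largest fitted rises were those of Col4a4, a type IV collagen chain, and Ntn4, a laminin-related netrin. Col4a4 was at 5.93, 3.99, 0 and 5.51 normalized counts in DMSO and at 19.7, 149, 31.3 and 87.1 in trametinib. It passed the filter only through its trametinib libraries, and its fitted value of 3.82 ± 0.61 rests on the pseudocount. Ntn4 had a log2 fold change of 3.33 ± 0.14. Ntn4 went from 306, 251, 152 and 305 normalized counts to 2723, 3151, 1792 and 2406. The 2 largest falls were Npnt, the ligand nephronectin, at -1.60 ± 0.18 and Nid1, nidogen, which links laminin to type IV collagen, at -1.28 ± 0.16. Of 18 integrin ligands outside the laminins, 16 were tested, 11 rose and 1, Spp1, osteopontin, fell (log2 fold change -1.09 ± 0.22). The largest rises were Tnc, tenascin C, at 5.11 ± 0.47 and Thbs1, thrombospondin, at 3.64 ± 0.35. Tnc went from 382, 110, 369 and 60.6 to 8184, 15282, 11100 and 1002. Fn1, fibronectin, the ligand of Itga5, was chosen after its values were seen. It went from 14764, 10366, 10041 and 11615 to 79905, 145516, 140190 and 69309 (log2 fold change 3.16 ± 0.27, adjusted p = 0.00036).

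Of 7 hemidesmosome genes, 5 were tested, 3 rose and 1 fell. Col7a1, the collagen of anchoring fibrils, and Dst, dystonin, had log2 fold changes of 1.43 ± 0.26 and 0.79 ± 0.14, and Plec, plectin, which binds Itgb4, fell (-0.85 ± 0.11). Col17a1, a transmembrane hemidesmosome collagen, did not exceed 11.4 in any library. Of 25 activators and adaptors of integrins, 9 rose and 6, or 24.0%, fell, near the shares over all genes, with a median of 0.16. Lims2, an adaptor of the integrin-linked kinase, and Tns1, a tensin, rose most (3.66 ± 0.24 and 2.32 ± 0.21). Tns4 and Tln2, a tensin and a talin, fell most (-1.76 ± 0.21 and -1.64 ± 0.21). Of 12 other laminin receptors and tetraspanins, 6 rose and 2 fell, with a median of 0.49. The tetraspanin Cd81 rose by 1.503 ± 0.12. Rpsa, a ribosomal protein also described as a laminin receptor, and the tetraspanin Cd9 fell (-1.04 ± 0.20 and -0.38 ± 0.09).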

How the data were processed

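RNA of 8 cultures was sequenced as stranded polyA libraries (TruSeq Stranded mRNA). The authors deposited normalized counts per gene, used here as a signal, and per the submitters' processing notes CASAVA 2.17, Salmon 0.12, DESeq2 1.18 and the build mm10 were used. The deposited values could not be turned back into whole reads, since 57.3% to 68.0% of values under 20 steps were whole within 0.05 of a step, so no count test was run. Genes with a mean of at least 10 were tested as log2(value + 1) with limma 3.58.1 in R 4.3.3, using a mean-variance trend, a block for the line, and p-values were adjusted over 15888 genes by Benjamini-Hochberg at a threshold of 0.05. The labels pair the libraries of a line by its number, and their deviations from the treatment means correlated at 0.631 to 0.724 across genes.

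The members, gene lists and tests were chosen with earlier results of these data known. The members are reported one by one, except for an item that is not reported here. From each list of partner genes, the 2 largest rises and the 2 largest falls with the same direction in 4 lines are named, with the same exception. Gene positions and transcript lengths are those of GENCODE M21 on GRCm38. Python 3.11.15, numpy 2.4.6, pandas 2.3.3 and matplotlib 3.10.9 were used. Alternatives were pseudocounts of 0.1 and 5, equal library totals, quantile normalization, centring on the median, no filter, a minimum mean of 50, no block, no trend, robust estimation and leaving out each line.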

Additional observations from a re-analysis of the deposited data

Results flagged for a closer look

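Dixon's test was applied to 90 sets of 4 values, 3 for each of the 30 tested members: the DMSO libraries, the trametinib libraries and the fold changes of the 4 lines. In 4 sets, all of libraries, 1 value stood apart from the other 3, where chance gives about 1 in 20, or 4.5. Itga7 in line #3 without trametinib was at 119 normalized counts, against 627 to 713 in the other lines, and was as low with trametinib. Itgb1 in line #1 without trametinib was at 26770, against 20217 to 21005. With trametinib, Itgb3 was at 3327 in line #5, against 1945 to 2153, and Itgb5 was at 7357 in line #1, against 4287 to 4749.

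In Itgam and Itgb3, 1 line rose and another fell by at least 0.5 on the log2 scale. Other tested members with lines on both sides of 0, such as Lama3, Itga7 and Itgb2, did not reach this limit in both directions. Members below the filter, such as Lama2 and Itgax, are left out of this comparison. With 1 library per line and treatment, the difference between lines was not tested. The log2 fold change of Itgam ran from -0.92 in line #1 to 2.31 in line #3, at counts of at most 27.5. That of Itgb3 ran from -0.65 in line #3 to 0.85 in line #5.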

How the results depend on the processing

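Of the 22 members that passed the test, 14 kept their direction and stayed past the threshold under each of the 14 alternatives in which they were tested. The number of members higher with trametinib ranged from 11 to 16 and the number lower from 5 to 8. Without the replicate block for the line, 11 and 5 members passed, and over all genes 2205 were higher and 2347 lower, against 4341 and 4075 with it. The adjusted p without the block was 0.067 for Itga2, 0.11 for Itga4, 0.097 for Itga10, 0.06 for Itgb4, 0.21 for Lamc1 and 0.13 for Lamc3, and the block changed no other call of a member. Equal totals moved the median log2 fold change of all genes up by 0.13, with 5315 higher and 3284 lower. Quantile normalization moved it by -0.10, and Itga10, Itgb4 and Lamc3 then had adjusted p of 0.16, 0.056 and 0.051. Itgb4 and Lamc1 also missed the threshold without a filter (0.058 and 0.051) and without the trend (0.079 and 0.064), and Lamc1 with centring (0.089), under which Itga1 passed (0.046). Itgb3bp passed as lower only under quantile normalization (0.015). Directions turned only in members that did not pass. Under quantile normalization the log2 fold change was -0.34 for Itga9, -0.10 for Itgam and -0.0105 for Itgb2. With 1 line left out, it ranged from -0.043 to 0.37 for Itga7, from -0.073 to 0.22 for Itga9 and from -0.17 to 0.91 for Itgam. The cause of these shifts was not tested. With 1 library per line and treatment, the spread between cultures of 1 line is not known, and values near 3 reads are limited by depth.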
